A study of Drosophila melanogaster with 6 samples.

Results

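The nuclear genes for the respiratory chain and the mitochondrial ATP synthase were followed in ovaries of Drosophila melanogaster. Members were the genes whose FlyBase symbol starts with ND- (complex I), UQCR- (complex III), COX and a digit (complex IV) or ATPsyn (ATP synthase). Mitochondrially encoded genes were left out, as were ND-49 and ATPsynbeta, which lie on chromosome 4. This gave 78 of the 17633 genes in the count table, of which 39 belonged to complex I, 9 to complex III, 16 to complex IV and 14 to the ATP synthase. The filter on low counts passed 56 of them, and 22 had too few counts to be tested.

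Messenger RNA was sequenced from ovaries of females aged 3 to 6 days, with 3 libraries homozygous for flamDeltaProm and 3 that carried flamDeltaProm over FM7. The flamDeltaProm allele lacks the promoter of the flamenco locus (flam), an X-linked source of piRNAs against transposons in the follicle cells. FM7 is a balancer X chromosome with many inversions, and the genotype field lists the autosomes as wild type in both groups. All 6 libraries therefore carried at least one copy of the deletion, and homozygosity for the deletion and absence of FM7 cannot be told apart. Titles of the FM7 libraries call their other X wild type, and the genotype field was followed instead. No label gives the number of flies per library.

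Complexes I, III and IV pass electrons from NADH to oxygen and pump protons across the inner mitochondrial membrane, and the ATP synthase uses the returning protons to make ATP. Complexes I, III and IV and the ATP synthase combine subunits from nuclear genes with a few encoded by mitochondrial DNA. In the fly ovary, ATP synthase subunits are known to be needed for germ cells to differentiate and for their mitochondria to form cristae, and late oocytes are known to enter a state of low respiration. Many fly respiratory genes also have duplicates, with symbols that end in L, that are known mainly from the testis.

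The flam transcript, listed as lncRNA:flam, had 0.507, 0.251 and 0.760 CPM (counts scaled to library size, here with TMM factors) in the homozygotes, against 1.93, 1.97 and 1.92 CPM in the FM7 libraries. This log2 fold change of -1.93 (SE 0.39) passed edgeR's quasi-likelihood test over all features (adjusted p = 0.0119), so the label and the RNA go the same way. Totals were between 19564819 and 23181058 counts per library, where 3 counts are worth 0.126 to 0.160 CPM. Whether replicates came from different animals is not in the labels, so each p-value measures only the spread between libraries, which may be technical.

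RNA of the respiratory chain differed little between the genotypes. Of the 56 tested members, none was higher and 3 were lower in the homozygotes at an adjusted p under 0.05 (edgeR), namely ATPsyndelta, ND-B17.2 and ND-MLRQ, each by less than 1.2-fold. The other 53 did not pass. Among all 9229 genes and transposon families tested, 19.7% passed, with 12.0% higher and 7.71% lower, and the 3 lower members were 5.36% of the members. All 56 tested members lay above the median level of all features, and among the 4538 features at least as abundant as the least abundant member, 5.51% were higher and 8.46% lower. At an unadjusted p under 0.05, 6 members passed in edgeR, 5 in DESeq2 and 6 in limma-voom. In edgeR, 3284 of all 9229 features passed this unadjusted threshold, as did 1327 of the 4538 at least as abundant. Both are larger shares than the 6 of 56 members. Unadjusted edgeR counts given below for complexes and lists have this same background.

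The members' log2 fold changes ran from -0.21 to 0.13, with a median of -0.0466. The median was -0.0082 over all features and -0.0342 over the 4538 features at least as abundant as the least abundant tested member. The members' standard deviation was 0.0849, against 0.813 over all features and 0.386 over the features at least as abundant. A negative log2 fold change was fitted for 40 of the 56 members (71.4%) and for 51.8% of all features. Among the features at least as abundant, 2735 of 4538 were negative. With library sizes alone, 18 of the 56 members were negative. By complex, the median was -0.06 for the 32 tested complex I members, -0.02 for 6 of complex III, -0.07 for 8 of complex IV and -0.03 for 10 of the ATP synthase. The median standard error of a single member was 0.0649.

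With TMM scaling and all 6 libraries, the 95% interval of each fold change reflects the spread between libraries, which may be technical. It does not cover a change of scaling, and with library sizes alone the members' median moved from -0.0466 to 0.0371. This interval stayed within 1.5-fold of no change for all 56 tested members, within 1.25-fold for 51 and within 1.2-fold for 37. The lowest limit, a fold of 0.667 for ND-B14.5A, lay at the 1.5-fold bound. The interval stayed within 1.5-fold for 69.2% of all features, within 1.25-fold for 47.8% and within 1.2-fold for 35%. These shares include features less abundant than any tested member, and features at least as abundant were not counted apart. The median SE was 0.0649 for members, 0.0625 for features at least as abundant and 0.08 for all features. No member's interval stayed within 1.1-fold, so the data do not bound any member that tightly.

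**Figure D1:**
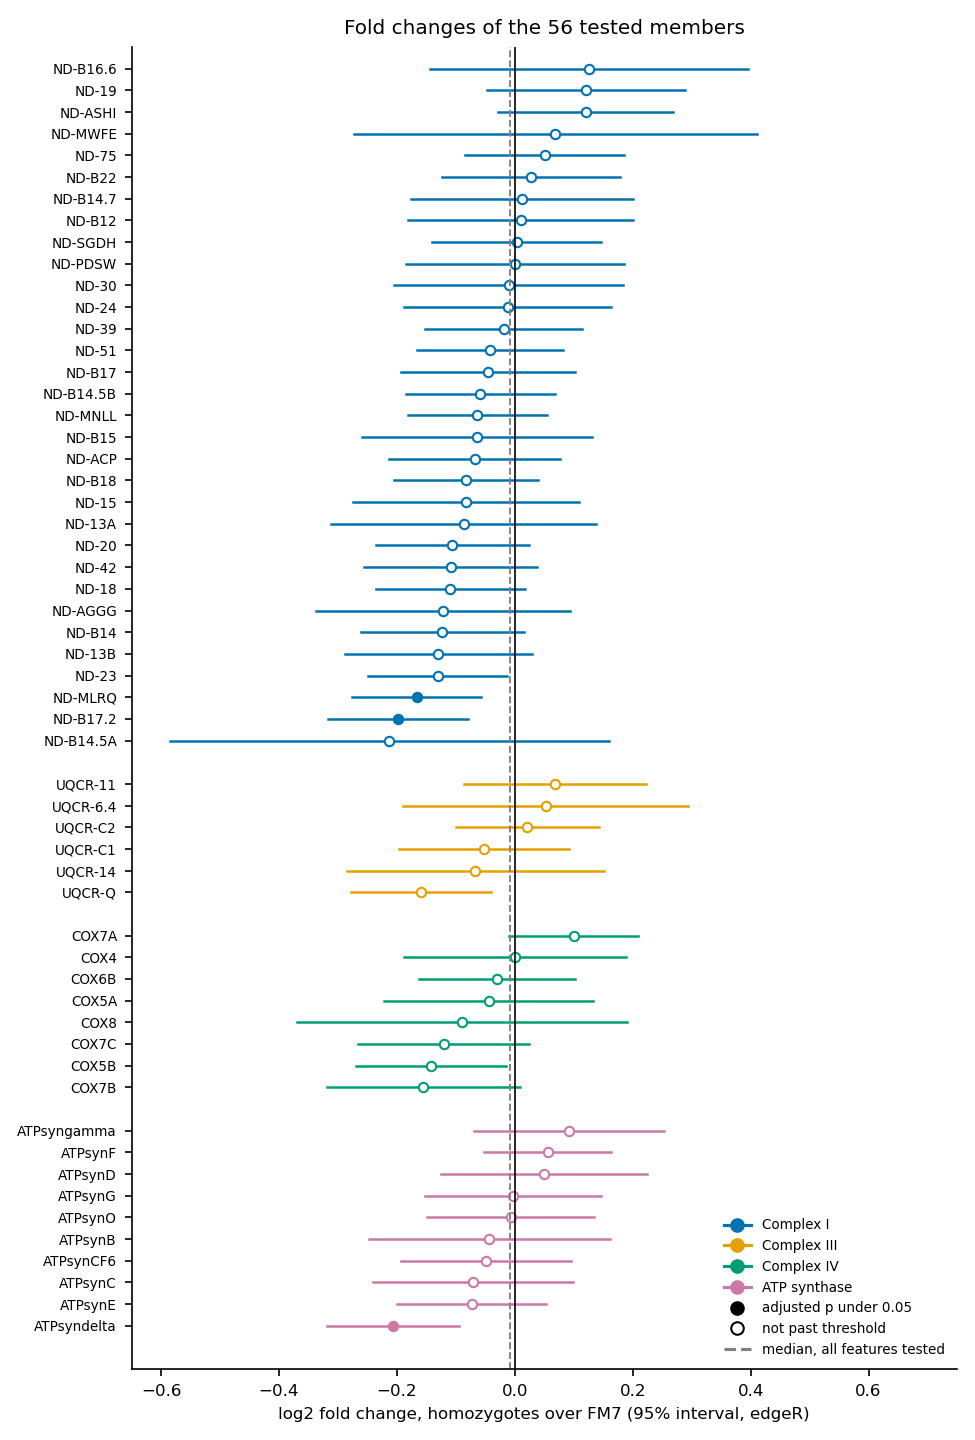
Log2 fold changes of the 56 tested members, homozygotes over FM7, with 95% intervals from edgeR, grouped by complex; filled points passed an adjusted p of 0.05 and the dashed line is the median of all features. Points lie between -0.21 and 0.13, and the 3 filled ones, ND-MLRQ, ND-B17.2 and ATPsyndelta, lie below 0.

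ATPsyndelta (X, 10212970 to 10217393, plus strand) encodes the delta subunit of the central stalk, which turns with the membrane rotor of the ATP synthase. It had 211, 217 and 219 CPM in the homozygotes, against 255, 240 and 251 CPM in the FM7 libraries. Every homozygote was below every FM7 library. The mean was 216 ± 3.78 CPM in the homozygotes and 249 ± 7.58 CPM in the FM7 libraries (SD, n = 3 each). This gave a fitted log2 change of -0.21 (SE 0.05, adjusted p = 0.0224) and a fold of 0.867 with a 95% interval of 0.802 to 0.937. An exon of CG2962 overlaps it on the other strand, and the sources used here do not say whether reads were counted by strand.

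The other ATP synthase genes did not pass the threshold. ATPsynC, which encodes the c subunit of the proton-driven rotor ring, was the most abundant member, with 2036, 2241 and 2078 CPM in the homozygotes, against 2260, 2175 and 2239 CPM in the FM7 libraries. These groups overlapped, and the log2 fold change was -0.07 (SE 0.07, adjusted p = 0.528). ATPsyngamma, the shaft of the central stalk and the partner of the delta subunit, had 399, 380 and 390 CPM in the homozygotes, against 386, 382 and 329 CPM in the FM7 libraries. It thus did not share the lower level of ATPsyndelta, although the difference between these genes was not tested.

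Genes of the peripheral stalk, which holds the catalytic head still, had overlapping levels throughout. ATPsynO had 268, 258 and 269 CPM in the homozygotes, against 285, 265 and 248 CPM in the FM7 libraries. ATPsynB had 314, 278 and 316 CPM in the homozygotes, against 340, 324 and 272 CPM in the FM7 libraries. ATPsynD and ATPsynCF6 overlapped likewise. ATPsynF, whose human homolog is a small membrane subunit, was one of 3 members with every homozygote above every FM7 library, at 259, 257 and 262 CPM in the homozygotes, against 256, 245 and 248 CPM in the FM7 libraries.

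Complex I, the NADH dehydrogenase, held the other called genes, both encoding accessory rather than electron-carrying subunits. ND-B17.2 (2L, 2579201 to 2580172, minus strand), the homolog of human NDUFA12, had 61.3, 64.7 and 59.7 CPM in the homozygotes, against 71.4, 71.8 and 70.0 CPM in the FM7 libraries. The groups did not overlap. The log2 fold change was -0.20 (SE 0.05, adjusted p = 0.0313), a fold of 0.871 with a 95% interval of 0.803 to 0.946.

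ND-MLRQ (3L, 23339326 to 23345936, plus strand) is the homolog of human NDUFA4, a protein first assigned to complex I and later placed in complex IV in human cells. It had 107, 99.8 and 107 CPM in the homozygotes, against 118, 117 and 117 CPM in the FM7 libraries, without overlap. The log2 fold change was -0.17 (SE 0.05, adjusted p = 0.0436), a fold of 0.891 with a 95% interval of 0.826 to 0.961. Its exons overlap the microRNA gene mir-4942 on the same strand.

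The subunits that carry electrons from NADH through complex I did not pass the threshold. ND-75, the largest of them and the most abundant complex I member, had 249, 243 and 236 CPM in the homozygotes, against 248, 236 and 219 CPM in the FM7 libraries. The groups overlapped, with a fitted log2 change of 0.05 (SE 0.06, adjusted p = 0.572). ND-51, which binds NADH, had 199, 180 and 186 CPM in the homozygotes, against 197, 195 and 189 CPM in the FM7 libraries. ND-24 and ND-20 also overlapped between the genotypes. ND-23, an iron-sulfur subunit, was below every FM7 library without passing, at 73.7, 73.4 and 72.4 CPM in the homozygotes, against 83.9, 78.8 and 77.7 CPM in the FM7 libraries.

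The members at either end of the fold changes, chosen after their values were seen, were complex I genes with wide spread. ND-B14.5A, the homolog of human NDUFA7, had 51.5, 38.7 and 50.3 CPM in the homozygotes, against 58.8, 60.3 and 43.9 CPM in the FM7 libraries. The fitted log2 change was -0.21 (SE 0.16, adjusted p = 0.376). ND-B16.6, the homolog of human NDUFA13, had 88.5, 87.6 and 84.9 CPM in the homozygotes, against 83.4, 91.6 and 64.3 CPM in the FM7 libraries. For this gene the fitted log2 change was 0.13 (SE 0.12, adjusted p = 0.475). In both genes the groups overlapped, and FM7 replicate 3 lay far below the other FM7 libraries.

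Complex III, which passes electrons from ubiquinol to cytochrome c, had no called member among 6 in edgeR, DESeq2 or limma-voom, and 1 at an unadjusted p under 0.05 in edgeR. UQCR-Q, the homolog of a small ubiquinone-binding subunit of human complex III, was the member closest to the threshold among those that missed it. It had 128, 123 and 125 CPM in the homozygotes, against 145, 143 and 132 CPM in the FM7 libraries, a fitted log2 change of -0.16 (SE 0.05, adjusted p = 0.0630). The groups did not overlap, and its exons overlap CG46525 on the same strand. UQCR-C1, a core protein of the complex and its most abundant member, had 421, 439 and 426 CPM in the homozygotes, against 468, 454 and 412 CPM in the FM7 libraries. These groups overlapped, and the fitted log2 change was -0.05 (SE 0.06, adjusted p = 0.587). UQCR-C2, the other core protein, overlapped too, at 255 to 263 CPM in the homozygotes and 242 to 265 CPM in the FM7 libraries.

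Complex IV, cytochrome c oxidase, which reduces oxygen to water, had no called member among 8 in edgeR, DESeq2 or limma-voom, and 1 at an unadjusted p under 0.05 in edgeR. COX5B, a subunit whose human homolog binds zinc, had 164, 167 and 169 CPM in the homozygotes, against 187, 172 and 193 CPM in the FM7 libraries. The groups did not overlap, and the log2 fold change was -0.14 (SE 0.06, adjusted p = 0.105). COX4, the most abundant complex IV member, had 325, 352 and 352 CPM in the homozygotes, against 345, 380 and 305 CPM in the FM7 libraries. Its fitted log2 change was -1e-04 (SE 0.08, adjusted p = 0.999), and the FM7 libraries spanned the homozygotes. COX7A and COX7B, both small subunits around the catalytic core, lay on opposite sides. COX7A had 167, 174 and 174 CPM in the homozygotes, against 156, 161 and 165 CPM in the FM7 libraries, and COX7B had 185, 182 and 185 CPM in the homozygotes, against 227, 202 and 186 CPM in the FM7 libraries. Neither passed the threshold.

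In all, the CPM ranges of the genotypes did not overlap for 11 of the 56 members (19.6%), with the homozygotes above for 3 and below for 8. Over all features, 41.9% did not overlap, with the homozygotes above for 21.8% and below for 20.0%. The 3 above were ND-ASHI, COX7A and ATPsynF. The 8 below were ND-18, ND-23, ND-B17.2, ND-MLRQ, UQCR-Q, COX5B, COX7B and ATPsyndelta.

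Levels per length of exon differed more between complexes than between genotypes. The median of complex I members was 87.2 CPM per kb in the homozygotes and 92.6 CPM per kb in the FM7 libraries. For complex III it was 141 CPM per kb in the homozygotes and 148 CPM per kb in the FM7 libraries. Complex IV members had a median of 263 CPM per kb in the homozygotes and 266 CPM per kb in the FM7 libraries, and ATP synthase members had 304 CPM per kb in the homozygotes and 306 CPM per kb in the FM7 libraries. The highest were ATPsynC, COX7B and ATPsynF, and ATPsynC stood above the rest at 1134 CPM per kb in the homozygotes and 1191 CPM per kb in the FM7 libraries. Within complex I, ND-ACP, the mitochondrial acyl carrier protein, was highest, at 239 CPM per kb in the homozygotes and 250 CPM per kb in the FM7 libraries, and ND-15 was lowest in the homozygotes at 38.1, against 40.3 CPM per kb in the FM7 libraries. These lengths come from an annotation that may not be the one used for counting.

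**Figure D2:**
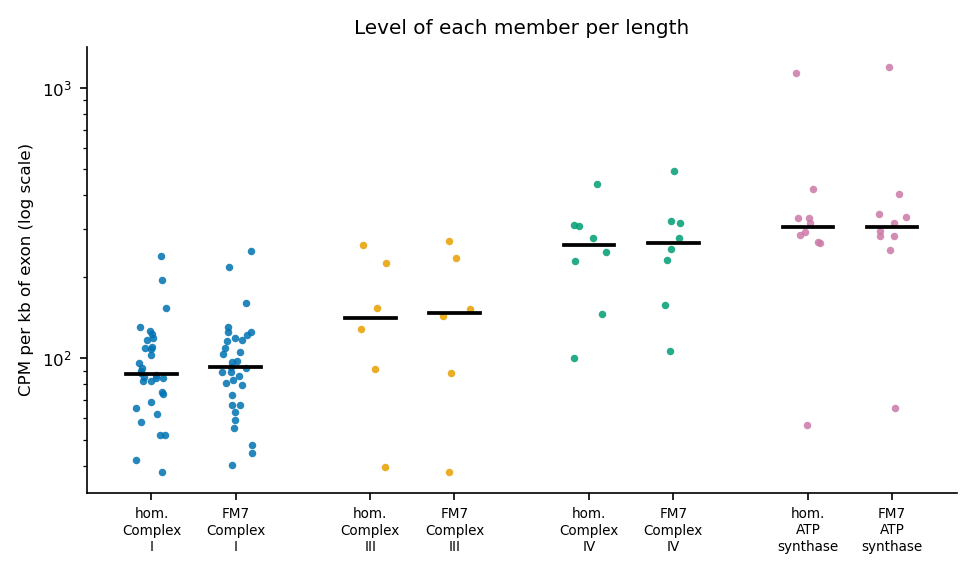
Mean level of each tested member in CPM per kb of exon (log scale), by complex, with the homozygotes left of FM7 in each pair; lines are medians over members. Complex I members have medians of 87.2 in the homozygotes and 92.6 in the FM7 libraries, and the highest point of each ATP synthase column is ATPsynC.

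Summed over all members, the level was 9917, 10092 and 10013 CPM in the homozygotes, against 10688, 10464 and 9749 CPM in the FM7 libraries. The homozygotes lay inside the range of the FM7 libraries, and the ratio of means was 0.972. The ratio was 0.971 for complex I, 0.974 for complex III, 0.966 for complex IV and 0.973 for the ATP synthase. As a share of all counts, without any further scaling, the members took 1.02% to 1.04% in the homozygotes and 0.967% to 1.03% in the FM7 libraries. In whole ovaries, fewer cells of a type and less RNA per cell cannot be told apart.

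The FM7 libraries were less alike for these genes than the homozygotes. FM7 replicate 3 had the lowest CPM among the FM7 libraries for 46 of 56 members (82.1%), against 39.2% of all features, and the lowest of all 6 libraries for 32 members (57.1%), against 22.9% of all features. Its median log2 difference from the other FM7 libraries was -0.163 over the members and 0.00209 over all features. In that library all complexes were low, with medians of -0.162 for complex I, -0.17 for complex III, -0.199 for complex IV and -0.151 for the ATP synthase. COX5B, COX6B and COX7A were the members whose highest FM7 level was in replicate 3. The median coefficient of variation of members was 3.41% among the homozygotes and 7.21% among the FM7 libraries, with 44 of 56 members, and 59.2% of all features, less variable among the homozygotes. For all features the median coefficients were 5.92% among the homozygotes and 7.44% among the FM7 libraries.

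**Figure D3:**
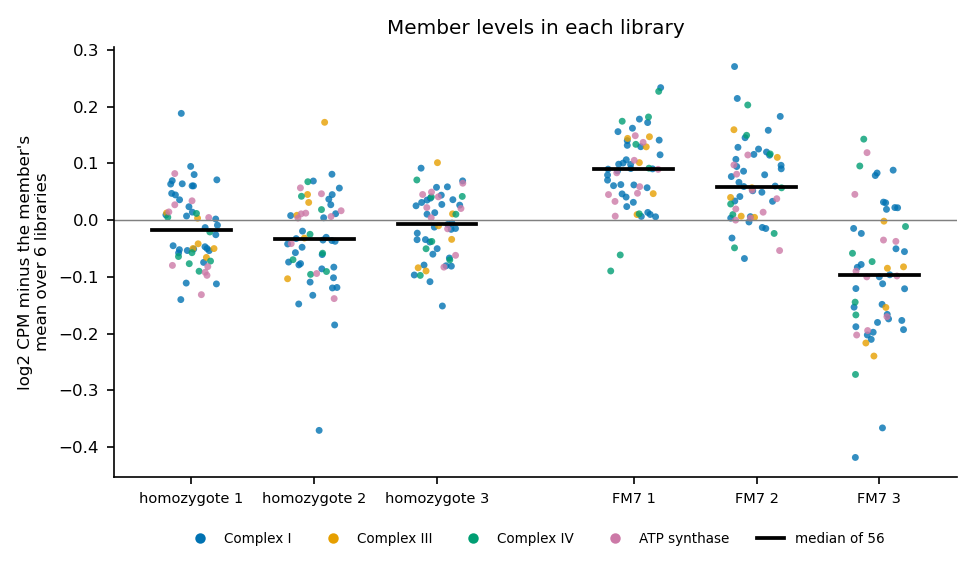
Level of each of the 56 tested members in each library, as log2 CPM minus that member's mean over the 6 libraries, coloured by complex; lines are medians. The homozygotes sit close together, FM7 replicates 1 and 2 sit above them, and FM7 replicate 3 sits below, where 32 members have their lowest value.

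Other values moved with FM7 replicate 3. Mitochondrially encoded genes took 1.81%, 1.97% and 1.81% of counts in the homozygotes, against 1.75%, 1.96% and 1.12% in the FM7 libraries. All 13 mitochondrially encoded subunit genes had their lowest FM7 level in replicate 3. Of 14 assembly factors 11 were lowest there and 1 was highest, and of 13 citrate cycle genes 7 were lowest and 3 highest. Cell type markers did not move one way in that library. Of 7 follicle cell markers, the eggshell genes Vm26Aa, Vm26Ab and Vm32E were highest of the FM7 libraries in replicate 3, and tj, Fas3 and mirr were lowest there. Of 9 haemocyte markers 5 were lowest there and 1 was highest, and of 7 germ cell markers 2 were lowest and 4 highest. The part of these differences in the members' levels was not tested.

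Without FM7 replicate 3, 12 of the 56 members were lower (21.4%) and none was higher, beside 8.98% of all features lower and 10.6% higher in that fit. ATPsyndelta, ND-B17.2 and ND-MLRQ were among them. The other 9 were ND-13B, ND-20, ND-42 and ND-AGGG of complex I, UQCR-Q and UQCR-14 of complex III, and COX7B, COX7C and COX8 of complex IV. ND-20 carries the iron-sulfur cluster that hands electrons to ubiquinone, and the rest are accessory subunits. The median log2 fold change of the 56 members was then -0.10, with a median of -0.0022 over all features. No member was lower without homozygote 1 (6.90% of all features lower), homozygote 3 (2.43%) or FM7 replicate 1 (3.03%). ND-B17.2 alone was lower without homozygote 2 (3.37%), and ATPsyndelta alone without FM7 replicate 2 (4.52%).

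The scaling of libraries also decided which members were called. With library sizes alone, no member was lower and COX7A and ND-ASHI were higher, beside 17.0% of all features higher and 3.50% lower, and the members' median was 0.04, with 0.07 over all features. The share of all calls that were higher was then 83%, against 60.8% with TMM scaling. With upper quartile scaling ATPsyndelta alone was lower, beside 5.72% of all features, and the median was -0.02, with 0.02 over all features. In these 3 fits the members' median minus that of all features was between -0.0397 and -0.0376 on the log2 scale. Scaling moves the log2 fold changes of all features by nearly the same amount, so this difference could hardly vary between them. With TMM scaling this difference was -0.0984 without FM7 replicate 3 and -0.0929 without the filter on low counts, where the median of all features was 0.0368. The sign of the members' own median depended on the scaling. With the replicate number as a block, edgeR called 0 members lower, beside 3.78% of all features. The remaining tests moved the calls less. DESeq2, limma-voom and edgeR without transposon families each called the same 3 members lower, beside 8.21%, 7.38% and 7.52% of all features, and edgeR without the filter on low counts called ATPsyndelta and ND-B17.2, beside 4.76%.

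**Figure D4:**
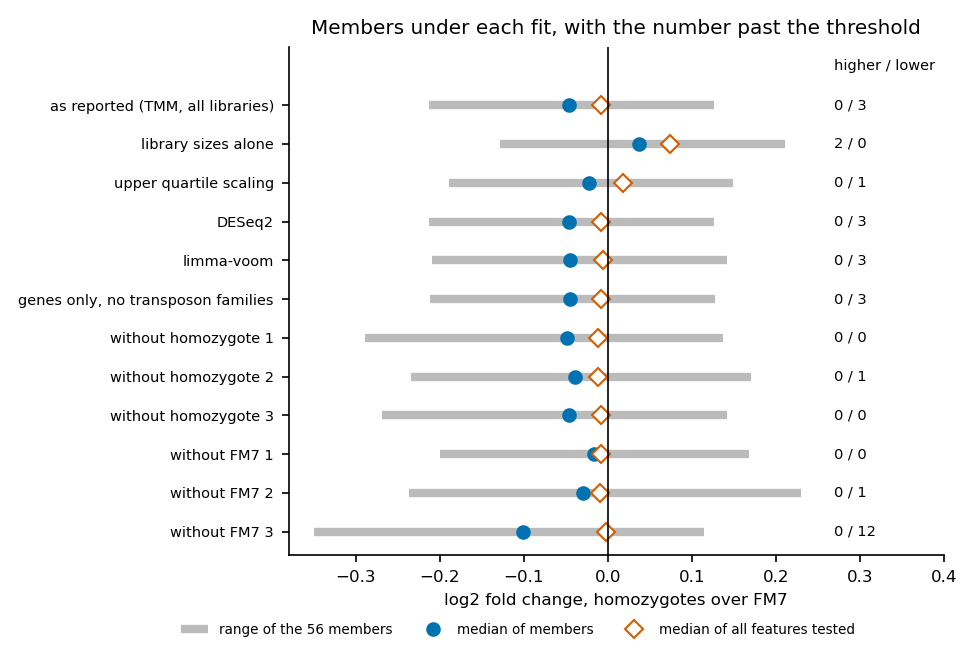
Range (bars) and median (filled points) of the log2 fold changes of the 56 members, homozygotes over FM7. Each fit is drawn except those without the filter on low counts and with the replicate number as a block. Diamonds are the median of all features, and the numbers are members called higher and lower. The count of lower members runs from 0 to 12, and it is 12 without FM7 replicate 3.

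Each member's share of the summed member counts does not depend on how libraries are scaled. By this share the genotypes did not overlap for 14 of 56 members (25%), with 7 higher and 7 lower in the homozygotes. Over all features, counts taken relative to the same sum gave 36.3% without overlap, 24.0% higher and 12.3% lower. ATPsyndelta made up 2.13%, 2.15% and 2.18% of member counts in the homozygotes, against 2.38%, 2.30% and 2.58% in the FM7 libraries. The others lower were ND-B17.2, ND-MLRQ, ND-20, ND-23, UQCR-Q and COX7B. Those higher were ND-75, ND-19, ND-ASHI, UQCR-C2, ATPsynD, ATPsynF and ATPsyngamma. UQCR-C2 made up 2.61%, 2.60% and 2.55% of member counts in the homozygotes, against 2.48%, 2.46% and 2.49% in the FM7 libraries. With 3 libraries against 3, the smallest two-sided exact permutation p is 0.1, which each of these shares reached.

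Position on the X, the chromosome that carries flam and differs by the balancer, was compared as well. The 12 tested members on the X had a median log2 fold change of -0.07, with 1 lower (ATPsyndelta) and none higher, and all 1605 tested X genes had a median of 0.02, with 6.98% lower and 13.4% higher. The 44 members on chromosome arms 2L, 2R, 3L and 3R had a median of -0.04, with 2 lower and none higher, and all 7432 tested genes on these autosomes had a median of -0.02, with 7.86% lower and 11.4% higher.

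Of the 22 members with too few counts, 21 had the symbol of a duplicate ending in L, L1 or L2, and none of these duplicates passed the filter. Of the 22, 9 had no count in any library, 6 had 1 to 5 counts over all libraries and 7 had more than 5. They summed to 83 counts in the homozygotes and 45 in the FM7 libraries, while the lowest count of any tested member in a library was 793. COX4L, a duplicate of COX4, had 3, 5 and 7 counts in the homozygotes, against 3, 6 and 4 in the FM7 libraries, a ratio of 1.01 (exact 95% interval 0.449 to 2.31, counting error only).

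ATPsynepsilonL, a duplicate of the epsilon subunit gene sun, was the untested member that differed most in counts. It had 8, 9 and 7 counts in the homozygotes, against 3, 0 and 1 in the FM7 libraries, without overlap. The ratio at equal depth was 5.26 (exact 95% interval 1.81 to 20.8, counting error only), and without the filter edgeR gave a log2 fold change of 2.31 with an adjusted p of 0.0736. It was singled out after its counts were seen. sun itself had 127, 131 and 127 CPM in the homozygotes, against 140, 140 and 106 CPM in the FM7 libraries (log2 fold change -9e-04, adjusted p = 0.996). Testis markers were near 0 in both genotypes. Their summed level over 7 genes was 0.126 to 0.465 CPM in the homozygotes and 0.107 to 0.281 CPM in the FM7 libraries, none passed the filter, and Mst84Da, Mst98Ca and dj had no count.

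ND-B8 (2L, 4454626 to 4455207, plus strand), the homolog of human NDUFA2, was the untested member without a duplicate's symbol. It had 0, 0 and 0 counts in the homozygotes, against 0, 1 and 0 in the FM7 libraries. Exons of Gs1l overlap it on the other strand, and whether this bears on its count was not tested.

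Of 11 tested subunit genes outside the symbol rule, none passed in edgeR, where 2 had an unadjusted p under 0.05, or in limma-voom, and 1 was lower in DESeq2. Their median log2 fold change was -0.03. ATPsynbeta, the catalytic subunit of the ATP synthase, had 1690, 1756 and 1694 CPM in the homozygotes, against 2016, 1892 and 2052 CPM in the FM7 libraries, without overlap (log2 fold change -0.21, SE 0.07, adjusted p = 0.0686). Its partner in the catalytic head, the alpha subunit gene blw, had 1707, 1765 and 1728 CPM in the homozygotes, against 1645, 1693 and 1647 CPM in the FM7 libraries, also without overlap and on the other side (log2 fold change 0.06, SE 0.07, adjusted p = 0.548). The difference between alpha and beta was not tested. ND-49, a core subunit of complex I, had a log2 fold change of -0.13 (adjusted p = 0.126).

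Of 4 tested genes of complex II, succinate dehydrogenase, none passed in edgeR, DESeq2 or limma-voom, 1 had an unadjusted p under 0.05 in edgeR, and their median was -0.03. The mitochondrial DNA gave 11 tested transcripts, with 1 higher, none lower and a median of 0.06. The higher one was mt:ATPase8, a small membrane subunit of the ATP synthase, with 74, 86 and 78 counts in the homozygotes, against 38, 30 and 28 in the FM7 libraries, and without overlap. A fitted log2 change of 1.12 (SE 0.24, adjusted p = 0.0154) was fitted, and the call was lost without homozygote 2 or homozygote 3. It shares a transcript with mt:ATPase6, which had 380, 429 and 393 CPM in the homozygotes, against 410, 426 and 245 CPM in the FM7 libraries (log2 fold change 0.15, adjusted p = 0.655).

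Of 14 assembly factors found, all were tested, with none higher and 1 lower, and their median was -0.05. The lower one was Surf1, which helps to build complex IV, with 20.4, 20.9 and 23.1 CPM in the homozygotes, against 27.4, 25.9 and 24.2 CPM in the FM7 libraries. This fitted log2 change of -0.27 (SE 0.08, adjusted p = 0.0489) was just past the threshold, and the call held in 2 of 13 other fits. Of 6 genes for carriers and the porin, none passed in edgeR, DESeq2 or limma-voom, and 2 had an unadjusted p under 0.05 in edgeR. Of 18 regulators of mitochondrial genes and DNA, none passed in edgeR, where 3 had an unadjusted p under 0.05, or in limma-voom, and 1 was lower in DESeq2. The regulators' median was -0.04. srl, the fly homolog of the PGC-1 coactivators, had 314, 314 and 321 CPM in the homozygotes, against 325, 327 and 370 CPM in the FM7 libraries (log2 fold change -0.11, adjusted p = 0.261).

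The citrate cycle, which supplies the chain with NADH, had 1 of 13 genes higher and none lower in edgeR, where 3 had an unadjusted p under 0.05, and 1 was lower in DESeq2. The median was -0.05. The higher gene was kdn, the X-linked gene for citrate synthase, with 284, 277 and 278 CPM in the homozygotes, against 231, 243 and 227 CPM in the FM7 libraries, without overlap. A fitted log2 change of 0.26 (SE 0.05, adjusted p = 0.0104) was fitted, and the call held in 13 of 13 other fits. Over these pathway lists, 77 of 96 entries were tested, and 2 were higher and 1 lower.

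Markers of cell types in and around the ovary gave the following counts. Of 10 muscle sheath markers 9 were higher and none lower, with a median log2 fold change of 0.93, and their summed level was 394 to 630 CPM in the homozygotes and 274 to 330 CPM in the FM7 libraries. Of 7 follicle cell markers 1 was higher and 5 were lower, with a median of -0.87 and a summed level of 1505 to 2177 CPM in the homozygotes and 3605 to 4876 CPM in the FM7 libraries, most of it from Vm26Aa and Vm26Ab. Of 9 haemocyte markers 6 were higher (Hml, NimC1, eater, Pxn, PPO1 and PPO2) and none lower, with a median of 3.14. Their summed level was 838 to 961 CPM in the homozygotes and 754 to 1069 CPM in the FM7 libraries, most of it from Col4a1, vkg and crq, which did not pass. Of 7 chorion genes of late egg chambers none passed in edgeR and 4 had an unadjusted p under 0.05, with a median of -2.07 and a summed level of 3616 to 12049 CPM in the homozygotes and 24973 to 29395 CPM in the FM7 libraries. Of 7 germ cell markers 1 was higher and 1 lower, with a median of -0.0041. These summed to 2979 to 3223 CPM in the homozygotes and 2949 to 3394 CPM in the FM7 libraries. Of 5 fat body markers 2 were higher (fit and FASN1) and 1 lower (Yp1), with a median of 1.44. The fat body sum was 2235 to 2822 CPM in the homozygotes and 3708 to 3940 CPM in the FM7 libraries, most of it from Yp1. No marker of these lists was at 0 in every library. Their part in the members' levels was not tested.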

How the data were processed

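Strand-specific mRNA libraries were made from TRIzol RNA, per the labels' protocols. The values deposited by the authors are raw read counts for genes and transposon families. Per the submitters' processing notes, the tools were STAR 2.7.8a, featureCounts 2.0.1 and DESeq2 1.30.1, with no roles stated. Their genome build, annotation, and treatment of strand and shared reads are not stated in these notes. Symbols, positions and exon lengths were taken by identifier from Ensembl release 115 (BDGP6.54), and 35 identifiers without a match took 0.0153% to 0.0177% of a library's counts.

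edgeR 4.0.16 in R 4.3.3 was run on these counts (TMM scaling, filterByExpr, robust quasi-likelihood test), with Benjamini-Hochberg adjustment over 9229 features and a threshold of 0.05. The SE comes from the unshrunken log2 fold change over the root of its F statistic, and intervals are 95%. DESeq2 1.42.0 and limma 3.58.1 (voom) were alternatives. The procedure was tested on simulated data, with planted changes larger than those of the called members. Calls of the size seen here, or a library with all members shifted, were not simulated. CPM use TMM-scaled library sizes. Replicates differed by more than sampling noise (chi-square per degree of freedom 8.18 to 38.9). Each was counted as a sample, although this spread may be technical and does not show that they came from different animals. ND-MNLL has the same counts as CG45089, and Ccdc56 the same as mtTFB1. Of the tested members, 7 overlap another gene on the same strand and 23 on the other strand, so that some reads may belong to the neighbour.

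The members and all lists were chosen with earlier results of these data known. Full statistics are given for members past the threshold, the most abundant member of each complex, the members nearest the threshold, called genes of other lists, and genes said to be chosen after their values were seen. Other members are described by their levels, and other listed genes by values without a call. Of 149 list entries, 134 were found, 3 of them through another symbol, and 122 were tested. Samples with a knockdown of traffic jam were not analysed here, and no promoter or protein sequences were used here.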

Additional observations from a re-analysis of the deposited data

How the results depend on the processing

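The number of lower members was 3 with TMM scaling, DESeq2, limma-voom and genes without transposon families, with the same 3 genes each time, and 2 without the filter on low counts, where ND-MLRQ was lost. It was 0 with library sizes alone, where 2 were higher, and 1 with upper quartile scaling. Leaving out each library in turn gave 0 to 12 lower members and medians of -0.1006 to -0.0169, with the 12 and the -0.1006 both without FM7 replicate 3. The median was 0.0371 with library sizes alone. Whether the replicate numbers pair the samples is not known. The correlations of same-numbered deviations were -0.303, -0.071 and -0.0387, and those of the other pairs ran from -0.19 to 0.284. Deviations were centred within each group of 3 libraries, which ties these values together, so they cannot settle the pairing. With the number as a block, 0 members were lower at an adjusted p under 0.05 and 4 passed at an unadjusted p under 0.05, while all features gave 700 higher and 349 lower (3.78%), against 1103 higher and 712 lower without the block. The mt:ATPase8 call was also lost in that fit (adjusted p = 0.0583).

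The largest adjusted p over the 13 alternatives was 0.151 for ATPsyndelta, 0.171 for ND-B17.2 and 0.288 for ND-MLRQ. The sign of the fold change turned for some members in other fits. With library sizes alone 38 of the 56 members were positive and 18 negative, against 16 and 40 as reported. COX4 was at 0.0842 with library sizes alone, 0.0241 with upper quartile scaling, 5e-04 with DESeq2, 0.0028 with limma-voom, 0.0015 with genes only, 0.0044 with the replicate block, and from -0.0829 to 0.0729 when each library was left out in turn. With library sizes alone UQCR-C1 was at 0.0313 and ATPsynC at 0.0118, and ND-B16.6 ran from -0.0122 without FM7 replicate 3 to 0.2305 without FM7 replicate 2. COX4, UQCR-C1, ATPsynC and ND-B16.6 did not pass the threshold in any fit, and the cause was not tested. Of the other list results, 28 counts moved by more than 1.5 times, most of them between 0 and 1.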
